A study of Mus musculus with 40 samples.

Results

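Tumor RNA was compared between 5 mice that received anti-GARP:TGF-β1 WT alone and 5 mice that received an isotype control antibody. The mice were chosen by the treatment tag of their column in the count table, and they are 10 of the 40 mice in the series, which holds 5 mice in each of 8 treatment groups. All mice were BALB/c, aged 6 to 12 weeks per the study's methods, and carried subcutaneous tumors grown from 1000000 CT26 cells, a BALB/c colon carcinoma line. Antibodies were given intraperitoneally on days 6, 9 and 12, and tumors were taken on day 13. Anti-GARP:TGF-β1 WT is clone 58A2 as a mouse IgG2a that can bind Fcγ receptors, and the isotype control is motavizumab, also a mouse IgG2a. The comparison groups used further on received clone 58A2 in a format that does not bind Fcγ receptors (FcD), the anti-TGF-β clone 1D11, or clone 58A2 WT together with an Fc-silent anti-PD-1. The tumors are whole fragments of 1 transplanted line, and the labels give neither the sex of the mice nor their tumor size.

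GARP, encoded by Lrrc32, is a transmembrane protein that holds latent TGF-β1 on the surface of regulatory T cells (Tregs), and also of endothelial cells and platelets. The latent complex releases active TGF-β1 when integrin αVβ8 interacts with it, and clone 58A2 binds the GARP:TGF-β1 complex and blocks that release. Active TGF-β1 restrains effector T cells and drives matrix genes in fibroblasts through Smad proteins. An antibody that can also engage Fcγ receptors may additionally mark the cells it binds for removal by macrophages or NK cells. The comparison with isotype therefore asks whether blockade alone left a trace in the TGF-β pathway, in Tregs, in effector T cells or in the Fc receptor-bearing cells of the tumor.

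The 10 libraries held between 12762129 and 20680548 counted reads, within the range of 11931730 to 20680548 over all 40. Levels are given as CPM, counts per 1000000 counted reads with normalised library sizes. In the 10 tumors, Vim, a mesenchymal filament gene, lay between 4589 and 6235 CPM and Cd44 between 436 and 536 CPM. Among epithelial genes, Epcam lay between 0 and 2.75 CPM, Vil1 between 0 and 0.314 CPM, Cdh1 lay between 0.556 and 3.01 CPM, Krt8 between 0.0618 and 9.43 CPM, Krt19 between 0.315 and 8.81 CPM and Krt18 between 4.78 and 24.1 CPM. The intestinal transcription factor gene Cdx2 lay between 3.38 and 5.76 CPM. Epithelial markers of the labelled colon carcinoma were thus low, and Epcam and Vil1 were at 0 in at least 1 tumor. Ptprc, encoding the leukocyte antigen CD45, lay between 63.0 and 176 CPM. The libraries of both groups fell into 2 ranges of library numbers. Isotype mice 1 and 2 and WT mice 1 to 3 had library numbers 41 to 60 and carried reads of Y-linked genes (136 to 317 counts of Ddx3y), whereas isotype mice 3 to 5 and WT mice 4 and 5 had numbers 61 to 80, 0 counts of Ddx3y and 784 to 2864 counts of Xist. The split is unequal between the groups, 2 against 3 in isotype and 3 against 2 in WT, so the difference of list means within each range is given where its sign was not the same in both and one exceeded 0.1 in size.

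No single gene passed correction for multiple testing between anti-GARP:TGF-β1 WT alone and isotype in edgeR. Of 14760 genes tested, 0 were called at an adjusted p under 0.05 by edgeR's quasi-likelihood test (a share called of 0%), and the smallest adjusted p was 1. At an unadjusted p under 0.05 there were 143 genes, or 0.969% of those tested, with 86 higher (0.583%) and 57 lower (0.386%) in WT. DESeq2's Wald test called 1 gene and had 246 at an unadjusted p under 0.05. The called gene was Myh1, a fast skeletal muscle myosin below edgeR's filter on low counts, which had 16 counts in WT mouse 1 and 0 in the other 9 mice. Bulk RNA cannot tell fewer cells of a type from less RNA per cell, here or in any result that follows.

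The precision of the comparison was high enough to bound most genes. The median absolute log2 fold change was 0.10, and 77.3% of genes differed by under 0.2 on the log2 scale. The 95% interval of the fold change lay inside 2-fold in both directions for 12273 genes, or 83.2% of those tested. That share was 98.3% among the 9624 genes with a mean of 10 CPM or more, 73.2% among the 3376 genes between 1 and 10 CPM, and 19.6% among the 1760 genes under 1 CPM. Only 186 genes had a fitted difference of 2-fold or more, and 147 of these had a mean under 1 CPM. The 2-fold differences were lopsided, 166 higher in WT against 20 lower, and the number higher depended on single mice. It was 102 without WT mouse 1, 190 to 249 without another WT mouse, 295 without isotype mouse 1 and 168 to 223 without another isotype mouse.

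**Figure D1:**
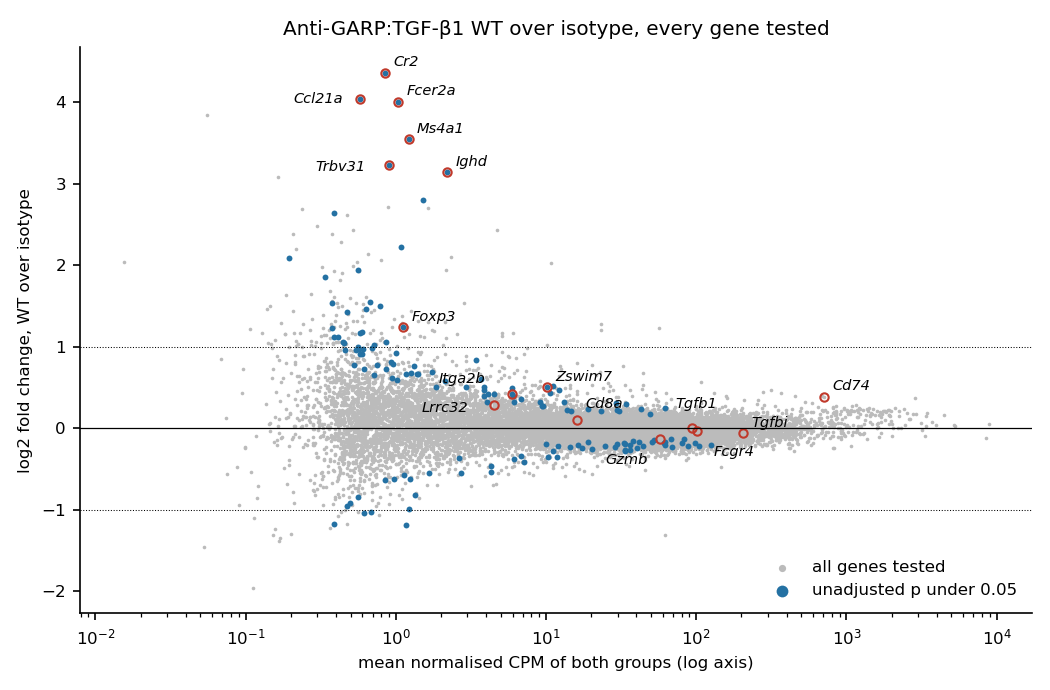
Each point is 1 of 14760 genes tested; the horizontal axis gives its mean normalised CPM over both groups on a log axis, and the vertical axis its log2 fold change of WT over isotype, with dotted lines at 2-fold. Genes at an unadjusted p under 0.05 are blue; the cloud narrows above 10 CPM, and the highest labelled points (Cr2, Ccl21a, Fcer2a, Ms4a1, Trbv31, Ighd) are lymphocyte or lymphoid tissue genes at low CPM.

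Transcripts of the antibody's target did not differ beyond the spread between mice. Lrrc32 (chr7:98489283-98502181, plus strand, GRCm38) stood at 4.64, 5.75, 5.07, 3.22 and 1.66 CPM in the isotype mice and at 9.28, 3.16, 3.66, 4.10 and 4.67 CPM in the WT mice. The groups overlapped, with WT mouse 1 above all other mice. The log2 fold change was 0.28 (SE 0.44, 95% interval -0.61 to 1.18), and -0.07 without WT mouse 1. Tgfb1 (chr7:25687002-25705077, plus strand), the isoform that GARP presents, was at 94.3 ± 8.75 CPM in isotype and 94.2 ± 8.35 CPM in WT (SD, n = 5 each). Its interval of -0.33 to 0.33 on the log2 scale bounds any difference in Tgfb1 below 1.26-fold.

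The other TGF-β isoforms and the activating integrin gave wider intervals that also held 0. Tgfb3 ranged from 24.9 to 48.2 CPM in isotype and from 26.6 to 40.2 CPM in WT, a log2 fold change of -0.14 (SE 0.16). Tgfb2 had means of 0.945 CPM in isotype and 0.657 CPM in WT, with a log2 fold change of -0.51 (SE 0.35). Itgb8, the β subunit of the integrin that releases TGF-β1 from GARP, ranged from 0.764 to 1.73 CPM in isotype and from 0.501 to 2.22 CPM in WT (log2 fold change 0.23, SE 0.41). Per kilobase of exon, the isotype mean was 18.7 CPM for Tgfb1, 10.2 for Tgfb3, 0.868 for Lrrc32 and 0.163 for Tgfb2. Among the 13 tested genes of GARP and latent TGF-β activation, 0 were at an unadjusted p under 0.05 and the median log2 fold change was -0.01, beside 0.01 for all genes tested. Itgav, the partner subunit of Itgb8, had the smallest p after Tgfb2 in that list, with a log2 fold change of -0.17 (SE 0.15).

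**Figure D2:**
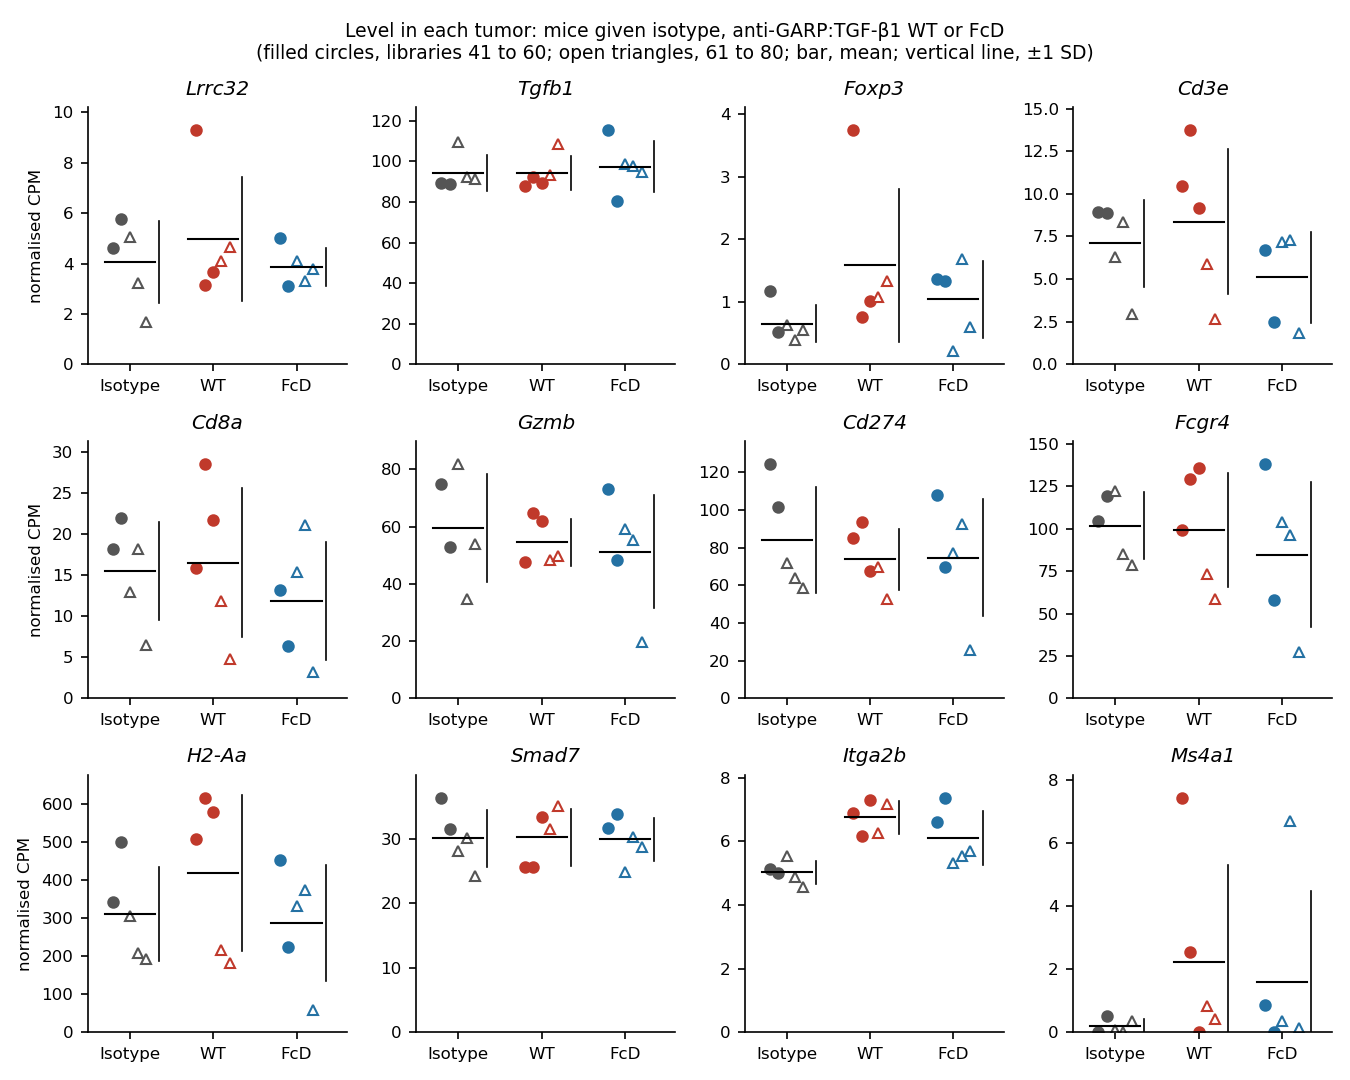
Normalised CPM of 12 genes in each tumor of mice given isotype, anti-GARP:TGF-β1 WT or FcD, with the group mean as a bar and 1 SD as a vertical line; filled circles are libraries 41 to 60 and open triangles 61 to 80. WT mouse 1 is the highest WT point for Lrrc32, Foxp3 and Ms4a1, and Itga2b is the gene shown whose 5 WT mice all lie above the isotype mice.

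Genes that respond to TGF-β signalling showed equally small differences. Smad7, the inhibitory Smad that TGF-β itself induces, was at 36.3, 31.6, 28.1, 30.2 and 24.3 CPM in isotype and 25.6, 25.7, 33.5, 31.5 and 35.1 CPM in WT. Its log2 fold change was 0.01 (SE 0.13), with an interval of -0.26 to 0.28. Skil, encoding the Smad corepressor SnoN, had a log2 fold change of -0.07 (SE 0.18). In the list of TGF-β receptors, Smads and feedback genes, 0 of 17 were at an unadjusted p under 0.05, the median log2 fold change was -0.05, and 16 of 17 intervals lay inside 2-fold. The 2 smallest p in that list belonged to the Smad ubiquitin ligase gene Smurf2 (-0.19, SE 0.14) and to Smad4 (-0.09, SE 0.07).

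Matrix targets were more variable among tumors. Tgfbi, a secreted matrix protein gene named for its induction by TGF-β, ranged from 157 to 236 CPM in isotype and from 176 to 243 CPM in WT (log2 fold change -0.06, SE 0.23). The median over 18 fibroblast matrix and contractile genes was 0.09, and -0.09 without WT mouse 1, with 0 genes at an unadjusted p under 0.05. Lox, a collagen cross-linking enzyme, was at 70.5 CPM in WT mouse 1 and at 7.26 to 30.5 CPM in the other 9 mice. Ctgf, a matricellular growth factor gene, was at 63.8 CPM in WT mouse 3 and at 16.5 to 30.1 CPM in the other 9.

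The study's own TGF-β1 response signatures, defined in human cells, gave the same picture after matching by symbol. In the signature over all cells, 113 of 153 genes were tested, 0 were at an unadjusted p under 0.05, 56 had a positive log2 fold change, and the median was -0.00. Their summed level was 9734 ± 605 CPM in isotype and 9529 ± 651 CPM in WT (SD, n = 5 each). In the signature from CD4 T cells, 40 of 48 genes were tested, 0 were at an unadjusted p under 0.05, 22 had a positive log2 fold change, and the median was 0.02.

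Among Treg genes, Foxp3 stood apart from the rest. Foxp3 (chrX:7573644-7595245, plus strand), the lineage transcription factor of Tregs, was at 1.17, 0.523, 0.625, 0.393 and 0.554 CPM in isotype and at 3.74, 0.754, 1.01, 1.08 and 1.34 CPM in WT. These levels rested on 19, 7, 9, 5 and 8 counts in isotype and on 50, 16, 16, 14 and 16 counts in WT. WT mice 1 and 5 were above all isotype mice, and the remaining WT mice lay above isotype mice 2 to 5 and below isotype mouse 1. The log2 fold change was 1.24 (SE 0.49, 95% interval 0.24 to 2.23), which passed the unadjusted threshold of 0.05 and had an adjusted edgeR p of 1. Without WT mouse 1 it was 0.64 and no longer passed the unadjusted threshold. Within libraries 41 to 60 the difference of mean log2(CPM + 0.5) was 0.61, and within libraries 61 to 80 it was 0.74.

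The other Treg markers did not follow Foxp3 in size. Il2ra, the high-affinity IL-2 receptor chain, ranged from 2.36 to 4.78 CPM in isotype and from 2.24 to 4.42 CPM in WT (log2 fold change -0.33, SE 0.41). Ctla4 had a log2 fold change of -0.11 (SE 0.72), the chemokine receptor gene Ccr8 0.07 (SE 0.77) and Ikzf2, encoding Helios, 0.06 (SE 0.38). Tnfrsf18, encoding GITR, had the smallest p in the list after Foxp3, with a log2 fold change of 0.47 (SE 0.30). Over 14 tested Treg genes the median was 0.07, 9 were above 0, and 1 was at an unadjusted p under 0.05. Their summed level, to which low transcripts add little, was 148 ± 16.8 CPM in isotype and 147 ± 11.0 CPM in WT.

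Foxp3 relative to T cells was compared as a log2 ratio of counts, with 0.5 added to each. The Foxp3 to Cd3e ratio, linear, was 0.134, 0.0628, 0.104, 0.0516 and 0.195 in isotype and 0.359, 0.0566, 0.113, 0.190 and 0.508 in WT. WT mice 1 and 5 were above every isotype mouse, while WT mouse 2 was lower than all but isotype mouse 4. The mean log2 ratio was higher by 0.93 in WT (SE 0.67, 95% interval -0.61 to 2.47, exact permutation p = 0.214, 2-sided). The Cd8a to Foxp3 ratio differed by -1.10 in mean log2 terms (SE 0.75, 95% interval -2.84 to 0.64, exact permutation p = 0.175, 2-sided). The smallest p that 5 against 5 mice allow is 0.00794. Neither ratio differed beyond the spread between mice. The Foxp3 to Cd3e difference was 0.53 within libraries 41 to 60 and 1.61 within libraries 61 to 80.

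T cell receptor genes leaned one way with intervals that held 0. Cd3e was at 8.96, 8.89, 6.32, 8.33 and 2.98 CPM in isotype and 10.5, 13.7, 9.14, 5.87 and 2.67 CPM in WT (log2 fold change 0.25, SE 0.56). Cd8a was at 18.2, 22.0, 12.9, 18.2 and 6.51 CPM in isotype and 15.9, 28.5, 21.7, 11.8 and 4.76 CPM in WT (0.10, SE 0.64). All 16 tested genes of the T cell receptor complex list had a positive log2 fold change, with a median of 0.24, but 0 were at an unadjusted p under 0.05 and only 1 interval lay inside 2-fold. The direction was not the same in both ranges of library numbers. The mean over the list differed by 0.25 within libraries 41 to 60 and by -0.21 within libraries 61 to 80. Cd4 was highest in WT mouse 1, at 5.09 CPM against 1.36 to 2.76 CPM in the other 9 mice (log2 fold change 0.57, SE 0.45), and Trbc1, the T cell receptor β constant region 1, had the smallest p (0.53, SE 0.38).

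A single V segment of the T cell receptor β locus carried one of the smallest p in the comparison, and it is named after its values were seen. Trbv31 had 0, 6, 2, 1 and 3 counts in the isotype mice and 6, 143, 5, 3 and 4 counts in the WT mice. The 143 counts of WT mouse 2 made the log2 fold change of 3.23 (SE 0.97, adjusted edgeR p of 1). The other 9 mice lay between 0 and 6 counts in both groups.

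Cytotoxic and cytokine genes of effector lymphocytes had overlapping levels and wide intervals. Gzmb, the granzyme of activated killer cells, was at 75.0, 52.9, 81.8, 34.7 and 54.1 CPM in isotype and 47.6, 64.8, 62.2, 48.3 and 49.7 CPM in WT. Its log2 fold change was -0.13 (SE 0.40, interval -0.93 to 0.67). Prf1, encoding the pore-forming protein perforin, was at 44.3 ± 10.4 CPM in isotype and 43.3 ± 10.9 CPM in WT (-0.03, SE 0.39). Ifng was at 1.61, 1.57, 1.46, 0.786 and 0.554 CPM in isotype and 1.57, 1.79, 1.45, 1.47 and 0.751 CPM in WT (0.24, SE 0.48). Tnf ranged from 6.13 to 10.4 CPM in isotype and from 6.43 to 9.99 CPM in WT (-0.00, SE 0.34). Over 13 cytotoxic effector genes the median was -0.03, 5 were above 0, 0 were at an unadjusted p under 0.05, and 4 intervals lay inside 2-fold. The median was 0.10 without WT mouse 1 and 0.07 without isotype mouse 3. The mean over the list differed by -0.52 within libraries 41 to 60 and by 0.45 within libraries 61 to 80. Fasl, the death ligand gene of killer cells, had a log2 fold change of 0.43 (SE 0.43).

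Checkpoint genes had wide intervals too. Pdcd1, the gene of PD-1, was at 14.4, 11.4, 10.1, 9.59 and 6.65 CPM in isotype and 11.2, 21.1, 12.7, 7.19 and 4.42 CPM in WT (log2 fold change 0.13, SE 0.60). Cd274, the gene of its ligand PD-L1, was at 124, 101, 71.9, 63.6 and 58.5 CPM in isotype and 85.3, 93.5, 67.6, 69.6 and 52.7 CPM in WT (-0.19, SE 0.41). The 12 inhibitory receptor and ligand genes had a median of 0.06, 0 at an unadjusted p under 0.05 and 4 intervals inside 2-fold, with Cd160 (0.59, SE 0.56) and Btla (0.37, SE 0.56) holding the smallest p. Among 10 tested NK cell genes the median was 0.10, and -0.05 without WT mouse 1, again with 0 at an unadjusted p under 0.05. Klrb1c, an NK receptor gene, had the smallest p (log2 fold change 0.39, SE 0.34). The NK cell list differed by 0.18 within libraries 41 to 60 and by -0.18 within libraries 61 to 80, and the inhibitory list by 0.01 and -0.15.

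Interferon responses were bounded more tightly. The 20 IFN-γ response genes, which report IFN-γ reaching tumor and myeloid cells, had a median log2 fold change of 0.02, 0 at an unadjusted p under 0.05, and 18 of 20 intervals inside 2-fold. Their summed level was 3462 ± 740 CPM in isotype and 3468 ± 617 CPM in WT. The mean over the list differed by -0.04 within libraries 41 to 60 and by -0.11 within libraries 61 to 80. Without WT mouse 1 the median was -0.07. Socs1, a feedback inhibitor of the pathway, had the smallest p (0.24, SE 0.21). All 19 type I interferon-stimulated genes had intervals inside 2-fold and a median of -0.04, with 0 at an unadjusted p under 0.05. All 11 MHC class I genes did too, with a median of 0.04. H2-K1, a classical class I heavy chain gene, had a log2 fold change of 0.09 (SE 0.14).

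MHC class II genes differed in opposite directions in the 2 ranges of library numbers. The 10 tested members all had positive log2 fold changes, with a median of 0.41, and 1 was at an unadjusted p under 0.05. Summed over the list, levels were 1759, 2341, 1575, 1107 and 989 CPM in isotype and 2371, 2962, 2838, 1144 and 1011 CPM in WT. Every tumor in libraries 41 to 60 lay above every tumor in libraries 61 to 80, and the mean over the list differed between WT and isotype by 0.49 within libraries 41 to 60 and by -0.14 within libraries 61 to 80. The member at an unadjusted p under 0.05 was H2-Oa, a subunit of the peptide-loading modulator H2-O that B cells express, with 2.62 CPM in WT mouse 1 and 0.149 to 0.696 CPM in the other 9 mice. H2-Ob, its partner, was at 5.76 CPM in WT mouse 1 and 0.486 to 3.21 CPM elsewhere.

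The Fcγ receptor genes had small log2 fold changes. Fcgr4, encoding an activating receptor that binds mouse IgG2a, was at 104, 119, 122, 85.0 and 78.7 CPM in isotype and 99.5, 129, 136, 73.5 and 58.7 CPM in WT (log2 fold change -0.04, SE 0.49). Fcgr1, the high-affinity activating receptor, ranged from 90.7 to 108 CPM in isotype and from 71.1 to 108 CPM in WT (-0.09, SE 0.31). The inhibitory receptor gene Fcgr2b gave 0.05 (SE 0.22) and Fcgr3 gave 0.02 (SE 0.27). Over the 7 IgG receptor genes the median was 0.05, 0 were at an unadjusted p under 0.05 and 6 of 7 intervals lay inside 2-fold. The one receptor with a wider interval was Fcgr4. The mean over the list differed by 0.17 within libraries 41 to 60 and by -0.18 within libraries 61 to 80.

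Myeloid lists followed. The 16 macrophage and monocyte genes had a median of 0.09 and a summed level of 1758 ± 211 CPM in isotype and 1923 ± 214 CPM in WT. The 15 complement genes had a median of 0.06 and the 12 dendritic cell genes 0.09. Without WT mouse 1 these medians were -0.00 and -0.06. The 8 neutrophil genes had a median of -0.05, with a summed level of 59.4 to 109 CPM in isotype and 63.2 to 127 CPM in WT. None of these 4 lists held a gene at an unadjusted p under 0.05. Within libraries 41 to 60 the neutrophil list differed by -0.63 and within libraries 61 to 80 by 0.83, and the dendritic cell list by 0.16 and -0.14.

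B cell genes were the list with the largest median difference, and WT mouse 1 had the highest level. All 13 tested B and plasma cell genes had positive log2 fold changes, with a median of 2.14, and 4 of them were at an unadjusted p under 0.05, among them Cr2, Fcer2a and Ms4a1. Summed over the list, levels were 40.2, 60.0, 51.3, 46.0 and 49.0 CPM in isotype and 203, 85.7, 48.9, 85.6 and 40.8 CPM in WT. WT mice 1, 2 and 4 were above all isotype mice, and WT mice 3 and 5 were within the isotype range. Without WT mouse 1 the median was 1.45 and 0 of the 13 were at an unadjusted p under 0.05, and without isotype mouse 3 the median was 2.42 and 1 of the 13 was. None of the 13 genes was at 0 in all 10 tumors, although some were at 0 in single tumors.

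The named B cell genes were highest in WT mouse 1, followed by WT mouse 2. Cr2, the complement receptor of mature B cells and follicular dendritic cells, had 0, 2, 0, 0 and 3 counts in isotype and 69, 39, 0, 12 and 2 counts in WT. Ms4a1, encoding CD20, had 0, 7, 1, 0 and 5 counts in isotype and 99, 54, 0, 11 and 5 counts in WT. Ighd, the IgD heavy chain of naive B cells, was at 0.124, 0.598, 0.486, 0.471 and 0.554 CPM in isotype and 12.9, 3.82, 0.820, 1.47 and 0.834 CPM in WT, with no overlap between the groups. Its log2 fold change was 3.14 (SE 1.30, adjusted edgeR p of 1), and 1.99 without WT mouse 1. Ighm, the IgM heavy chain and the largest part of the summed level, gave 0.41 (SE 0.47).

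WT mouse 1 was also high for other tissues. Ccl21a, a lymphoid tissue chemokine gene, had 57 counts in WT mouse 1 and 0 to 9 counts in the other 9 mice. The 15 skeletal muscle genes summed to 25.8 CPM in WT mouse 1 and to 3.93 to 7.41 CPM elsewhere, and the 14 adipocyte genes summed to 467 CPM in WT mouse 1 and to 115 to 319 CPM elsewhere. The median log2 fold change of the adipocyte list was 0.52 with WT mouse 1 and -0.05 without it, and that of the 7 tested muscle genes was 0.85 with it and 0.21 without it. Vwf, an endothelial and platelet protein gene, was at 7.48 CPM in WT mouse 1 and at 0.693 to 2.01 CPM in the other 9 mice. The part these tissues play in the Foxp3, Lrrc32 and B cell values of WT mouse 1 was not tested. In FcD mice the B and plasma cell sums were 66.2, 35.2, 59.7, 107 and 34.3 CPM, with mice 1 and 4 above every isotype mouse. Ms4a1 had 99 counts in FcD mouse 4 and at most 14 in the other FcD mice.

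**Figure D3:**
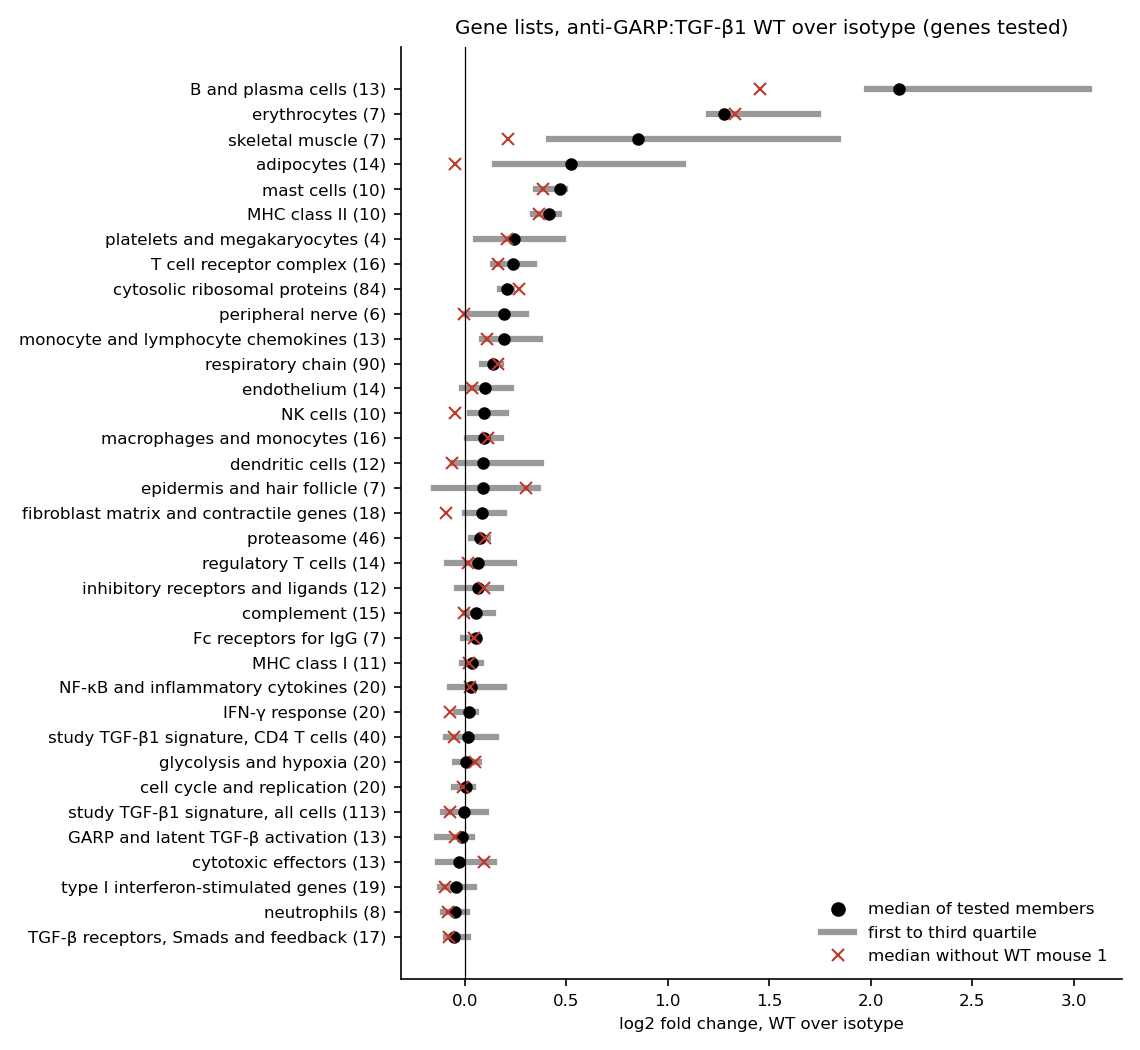
Median log2 fold change of WT over isotype for 35 gene lists (black points, with the number of tested genes in brackets), the interquartile range of their members (grey) and the median without WT mouse 1 (red crosses). B and plasma cells lead at 2.14, and most immune, interferon and TGF-β lists lie within 0.2 of 0.

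**Figure D4:**
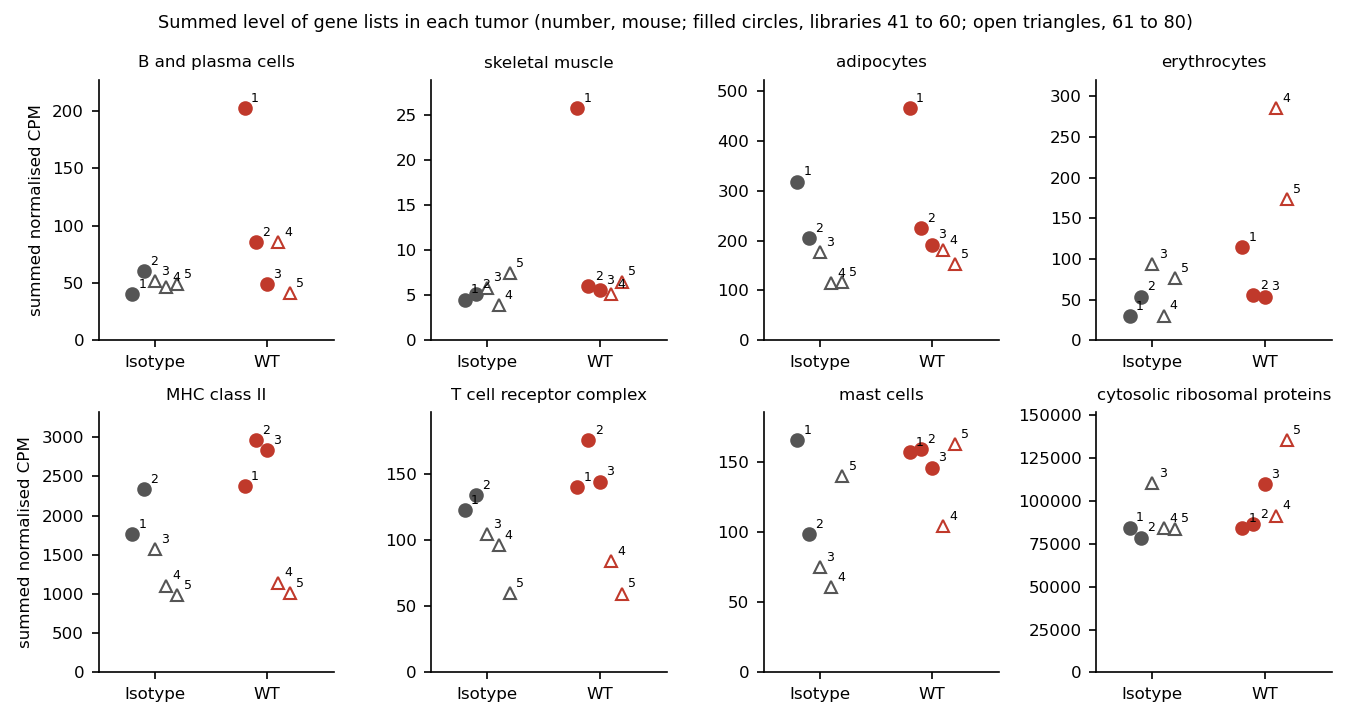
Summed normalised CPM of 8 gene lists in each tumor of both groups, with the mouse number beside each point; filled circles are libraries 41 to 60 and open triangles 61 to 80. WT mouse 1 is highest for B cell, muscle and adipocyte genes, WT mice 4 and 5 for erythrocyte genes, and MHC class II and T cell genes are higher in libraries 41 to 60 than in 61 to 80.

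Blood cell lists had positive medians. The 7 tested erythrocyte genes had a median of 1.28, all positive, with 0 at an unadjusted p under 0.05. Their summed level was 29.9, 53.7, 93.2, 30.3 and 76.3 CPM in isotype and 114, 55.9, 53.7, 286 and 173 CPM in WT, so that WT mice 1, 4 and 5 were above all isotype mice. Alas2, the heme synthesis enzyme of red cell precursors, had a log2 fold change of 1.54 (SE 0.79). Of the platelet and megakaryocyte genes 4 were tested, with a median of 0.24, and their mean differed by -0.00 within libraries 41 to 60 and by 0.58 within libraries 61 to 80. Itga2b, the platelet integrin αIIb, was at 5.13, 5.01, 5.55, 4.87 and 4.57 CPM in isotype and 6.88, 6.18, 7.31, 6.26 and 7.18 CPM in WT. All WT mice lay above all isotype mice, and the log2 fold change was 0.43 (SE 0.16, interval 0.10 to 0.75, adjusted edgeR p of 1). Pf4, the platelet chemokine gene, was at 11.2 to 26.0 CPM in isotype and 16.2 to 35.9 CPM in WT (0.65, SE 0.50). The 10 mast cell genes were all positive with a median of 0.47, and Mcpt2, a mucosal mast cell protease gene, was the 1 at an unadjusted p under 0.05 (1.55, SE 0.70). The endothelial list had a median of 0.10, the peripheral nerve list 0.20, the epidermis list 0.09, the NF-κB and inflammatory cytokine list 0.03 and the chemokine list 0.19, where Ccl21a was the 1 gene of these lists at an unadjusted p under 0.05. Without WT mouse 1 these medians were, in the same order, 0.04, -0.01, 0.30, 0.03 and 0.11. The NF-κB list differed by -0.26 within libraries 41 to 60 and by 0.42 within libraries 61 to 80.

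Housekeeping programmes had narrow intervals. All 20 cell cycle and replication genes had intervals inside 2-fold, with a median of 0.01 and a summed level of 3430 ± 53.5 CPM in isotype and 3373 ± 109 CPM in WT. All 20 glycolysis and hypoxia genes did too, with a median of 0.01, and their mean differed by -0.14 within libraries 41 to 60 and by 0.15 within libraries 61 to 80. Cytosolic ribosomal protein genes were positive in 84 of 84 cases, with a median of 0.21 and 0 at an unadjusted p under 0.05. Their summed level was 84452, 78723, 110489, 84158 and 83887 CPM in isotype and 84398, 86667, 109833, 91495 and 135582 CPM in WT. Isotype mouse 3 and WT mice 3 and 5 were the 3 highest, and the groups overlapped. Respiratory chain genes had a median of 0.14, with 85 of 90 positive, and proteasome genes 0.07, with 41 of 46 positive. With all 10 mice, 2 of 90 respiratory chain genes were at an unadjusted p under 0.05, Ndufa4l2 (log2 fold change 0.84) and Ndufb2 (-0.38), and 0 of 46 proteasome genes were. Without isotype mouse 3 the number of genes at an unadjusted p under 0.05 over the whole table was 761 (298 higher, 463 lower), or 5.09% of the 14946 genes that fit tested, and 0 were called by edgeR. Among the 761 were 18 of 90 respiratory chain genes, 3 of 46 proteasome genes and 1 of 84 ribosomal protein genes. Without that mouse the medians were 0.22 for respiratory chain, 0.13 for proteasome and 0.30 for ribosomal protein genes.

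Only 28 genes had 5 WT mice entirely on one side of the 5 isotype mice. There were 23 higher (0.156% of genes tested) and 5 lower (0.0339%). Efcab8, an EF-hand protein gene, had the smallest p of all, at 0.494, 0.523, 0.347, 0.393 and 0.554 CPM in isotype and 0.674, 0.943, 1.01, 1.00 and 1.00 CPM in WT. Its log2 fold change was 0.99 (SE 0.30, adjusted edgeR p of 1), on 5 to 20 counts a mouse. Zswim7, a cofactor of homologous recombination, was at 8.10, 7.32, 9.65, 9.51 and 7.48 CPM in isotype and 9.73, 10.1, 13.2, 12.6 and 14.2 CPM in WT (0.51, SE 0.18). Mafa, a transcription factor known from pancreatic β cells, was at 2.47 to 3.33 CPM in isotype and 3.44 to 6.01 CPM in WT (0.61, SE 0.21). Adgrb2 (1.19, SE 0.47), Prss22 (1.06, SE 0.44), Vsig2 (1.54, SE 0.68) and the unnamed loci RP23-125I9.1 (1.43, SE 0.43) and RP23-162K2.5 (0.97, SE 0.37) completed the 10 higher genes with the smallest p, together with Ighd and Itga2b.

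The 5 genes lower in every WT mouse were small differences or low counts. RP23-336B1.3 was at 1.17 to 2.36 CPM in isotype and 0.309 to 1.08 CPM in WT (log2 fold change -0.99, SE 0.36). Casz1, a zinc finger transcription factor gene, was at 0.864 to 1.39 CPM in isotype and 0.441 to 0.849 CPM in WT (-0.66, SE 0.46). Dact2, a regulator of Wnt and TGF-β receptor signalling, did not exceed 0.247 CPM in any mouse. RP23-181M13.5 (-0.29, SE 0.14) and RP24-315N18.1 (-0.18, SE 0.14) were the other two. None of the 28 belonged to the TGF-β, interferon or cytotoxic lists. Such genes were 0.156% (higher) and 0.0339% (lower) of all genes tested, so lists this short could easily hold none. Nothing about these pathways is read from their absence.

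Against the same antibody without Fc receptor binding, no single gene passed correction for multiple testing. WT against FcD called 0 genes (0%) in edgeR and 0 in DESeq2, with 207 at an unadjusted p under 0.05 (1.4%) in edgeR. Foxp3 was at 1.36, 1.34, 0.212, 1.69 and 0.598 CPM in FcD mice, and the log2 fold change of WT over FcD was 0.59 (SE 0.47). Lrrc32 gave 0.36 (SE 0.44), Fcgr4 0.23 (SE 0.49) and Gzmb 0.09 (SE 0.40) on the same scale. The T cell receptor complex list had a median of 0.63 with all 16 genes positive and 1 at an unadjusted p under 0.05, and the summed level of these genes was 33.5 to 120 CPM in FcD against 59.7 to 176 CPM in WT. FcD had 2 mice in libraries 41 to 60, at 101 and 54.9 CPM, below the 3 WT mice there at 140, 176 and 145 CPM. In libraries 61 to 80 the FcD mice were at 97.1, 120 and 33.5 CPM and the WT mice at 84.2 and 59.7 CPM, so the groups overlapped there. The Foxp3 to Cd3e ratio differed between WT and FcD by -0.09 in mean log2 terms (exact permutation p = 0.897, 2-sided).

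Against the anti-TGF-β antibody, which neutralises active TGF-β from any source, no gene was called. edgeR called 0 genes (0%) and had 342 at an unadjusted p under 0.05 (2.32%), and DESeq2 called 0. All 8 tested neutrophil genes were lower in WT than in anti-TGF-β, with a median of -1.35 and 5 at an unadjusted p under 0.05. All 19 type I interferon-stimulated genes were lower as well, with a median of -0.29 and 5 at an unadjusted p under 0.05. Lower values were not particular to these 2 lists. The complement (0 of 15), IgG receptor (0 of 7) and adipocyte (0 of 14) lists had no gene above 0 either. The ribosomal protein list went the other way, with 81 of 84 above 0. Over all genes tested, 218 were at least 2-fold lower in WT and 16 at least 2-fold higher. The TGF-β receptor, Smad and feedback list had a median of -0.03 and Foxp3 a log2 fold change of -0.01 (SE 0.46).

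The combination with anti-PD-1 had far more genes at a small unadjusted p against WT alone than WT alone had against isotype. With edgeR 0 genes were called (0%), the smallest adjusted p was 0.0963, and 4361 genes, or 29.5% of those tested, were at an unadjusted p under 0.05. DESeq2 called 619. Without mouse 2 of the combination group edgeR called 1707. Gzmb was at 112, 86.6, 143, 151 and 290 CPM in the combination, above all 5 WT mice, with a log2 fold change of 1.52 (SE 0.40, adjusted edgeR p of 0.0963). Cd274 was at 201, 126, 236, 194 and 285 CPM, also above all WT mice (1.50, SE 0.41). All 20 IFN-γ response genes were positive with a median of 0.58, and all 13 cytotoxic effector genes with a median of 1.12, whereas the same lists against isotype, with anti-GARP:TGF-β1 WT alone, had medians of 0.02 and -0.03. At an unadjusted p under 0.05 were 6 of the 20 and 5 of the 13, beside 29.5% of all genes tested. Large medians were not particular to these lists. They were 1.24 for mast cells, 0.96 for neutrophils and 0.68 for macrophages and monocytes. Other lists were negative, with -0.98 for B and plasma cells and -0.37 for ribosomal protein genes. The combination is set against the WT mice and the WT mice against isotype, so both comparisons share the WT tumors.

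**Figure D5:**
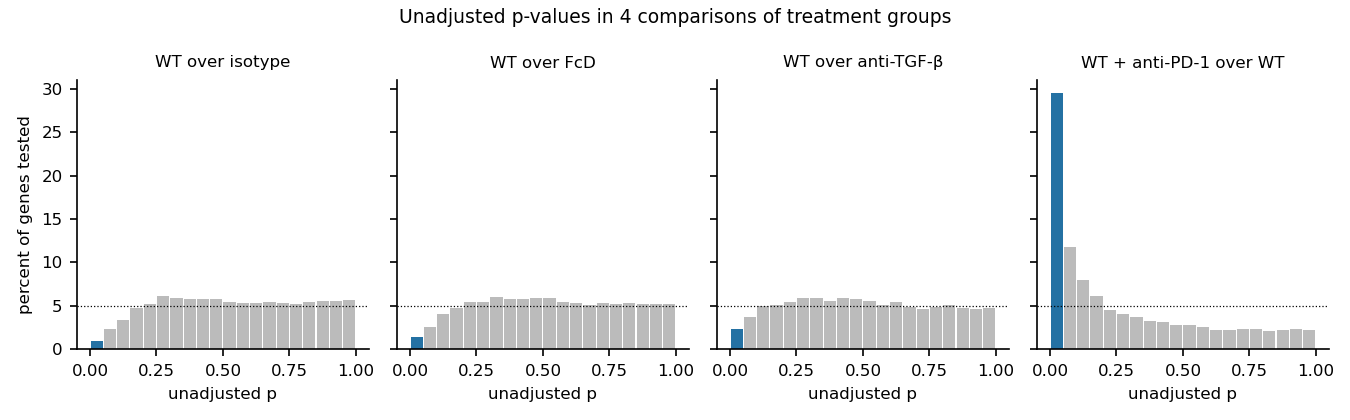
Share of the 14760 genes tested in 20 equal bins of the unadjusted edgeR p, for 4 comparisons; the dotted line marks the 5% a bin would hold if p were spread evenly. The first bin, in blue, holds 0.969% for WT over isotype, 1.4% for WT over FcD, 2.32% for WT over anti-TGF-β and 29.5% for the combination over WT.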

How the data were processed

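The authors deposited 1 table of raw read counts per gene for 40 tumors (stranded mRNA libraries). Per the labels' processing notes, STAR 2.5.3a, SAMtools 1.6 and HTSeq 0.9.1 were used with GRCm38; the strand setting of the counting is not given in the sources used here. No count column was left unmatched to a sample (0 columns), and 27 gene names had been turned into dates and were kept as they stand. Groups follow the treatment tag. Genes with low counts were removed (edgeR filterByExpr), leaving 14760 of 54087. All 40 mice entered 1 edgeR 4.0.16 quasi-likelihood model (R 4.3.3) with TMM sizes, 1 coefficient per group and Benjamini-Hochberg adjustment over all genes tested; intervals use the moderated spread. DESeq2 1.42.0 was an alternative. Replicates of a group are separate mice, and each of 20 pairs differed beyond sampling noise (chi-square per degree of freedom of at least 5.77). Gene positions and exon lengths come from GENCODE vM21, where 12761 tested symbols matched once. Named genes are 27 pathway genes (some items are not reported here), the 10 higher and 10 lower genes of smallest p without overlap between mice (5 lower existed), and the 2 of smallest p per list; Trbv31, Myh1, Ms4a1, Ighm, the tissue markers and the sex-linked genes were named after their values were seen. The groups compared and the gene lists were chosen with earlier results of these data known. List means within library numbers use log2(CPM + 0.5). Functions were checked on simulated counts.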

Additional observations from a re-analysis of the deposited data

Results flagged for a closer look

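In each group, pathway and non-overlapping genes, list sums and both ratios were examined, giving 158 sets of 5 mice. Of these, 19 held 1 mouse whose gap to its nearest neighbour exceeded 0.71 of the range of the set. This cut-off marks about 1 in 20 independent sets of normally distributed values. The sets here share mice and overlap in genes, so that rate is no benchmark for the 19 flagged. WT mouse 1 accounted for 9 of them. It was highest for Lrrc32 at 9.28 CPM (others at most 4.67), Foxp3 at 3.74 CPM (others at most 1.34), Cd4 at 5.09 CPM (others at most 2.25) and Ighd at 12.9 CPM (others at most 3.82). It was highest for the summed B and plasma cell genes at 203 CPM (others at most 85.7), adipocyte genes at 467 CPM (others at most 224) and skeletal muscle genes at 25.8 CPM (others at most 6.51). It was lowest for Efcab8 at 0.674 CPM (others at least 0.943) and for summed cytotoxic effector genes at 172 CPM (others at least 302).

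Isotype mouse 3 was set apart for Tgfb1 at 110 CPM, for summed TGF-β receptors, Smads and feedback genes at 986 CPM (others at least 1104), for respiratory chain genes at 12846 CPM (others at most 10707) and for cytosolic ribosomal protein genes at 110489 CPM (others at most 84452). WT mouse 5 was highest for Tgfb1 at 109 CPM, for neutrophil genes at 127 CPM (others at most 74.1) and for NF-κB and inflammatory cytokine genes at 1648 CPM (others at most 1348). WT mouse 4 was lowest for mast cell genes at 104 CPM (others at least 146), WT mouse 3 highest for monocyte and lymphocyte chemokine genes at 1247 CPM (others at most 908), and isotype mouse 1 lowest for Ighd at 0.124 CPM (others at least 0.471).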

How the results depend on the processing

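No gene was called in WT against isotype by edgeR under any setting (DESeq2 size factors, no filter on low counts, library numbers as a covariate, only the 2 groups compared, or any 1 mouse left out); DESeq2's Wald test called 1. The number at an unadjusted p under 0.05 was 143, 624 with no filter on low counts, 246 with DESeq2's Wald test, and 96 to 761 when 1 mouse was left out (761 without isotype mouse 3, 254 without WT mouse 2, 234 without WT mouse 4). WT against FcD and WT against anti-TGF-β stayed at 0 calls throughout. WT + anti-PD-1 against WT had 0 calls, 619 with DESeq2's Wald test, and 0 to 1707 when 1 mouse was left out (1707 without mouse 2 of the combination); the cause was not tested. Both ratios kept their sign throughout. Their exact permutation p stayed above 0.05 over all 10 mice and with 1 left out, and the tests within a range of library numbers were void, since 2 against 3 mice allow no p below 0.1; leaving out 1 mouse gave 0.57 to 1.36 for Foxp3 to Cd3e and -1.56 to -0.71 for Cd8a to Foxp3. Of 1555 alternative fold changes of 105 named genes, 1542 moved by no more than their SE, and 13 moved further, each on leaving out 1 mouse; Foxp3 moved from 1.24 to 0.64 without WT mouse 1. Of 540 alternative list medians, 526 moved by less than the spread between mice, a looser bound than the error of the difference. All these refits reuse most or all of the same counts. Small moves were therefore likely from the outset and are no independent support. Intervals were widest for genes under 1 CPM, and were also wide for well-counted genes that varied between mice, such as Gzmb (SE 0.40) and Cd274 (SE 0.41). No paired analysis was possible because the mice of different groups share no numbers in the labels.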
